A study of Mus musculus with 2 samples.

Results

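The genes described here are 10 transcription regulators of lipid metabolism, chosen by symbol out of the 32285 genes that both deposited matrices list. They are the peroxisome proliferator-activated receptors Pparg, Ppara and Ppard, the coactivator Ppargc1a, the retinoid X receptors Rxra and Rxrb, the sterol regulatory element-binding protein genes Srebf1 and Srebf2, and the liver X receptors Nr1h2 and Nr1h3. Single cells of murine back skin and of the preputial gland (PG), a paired sebaceous gland of rodents that opens beside the prepuce, were measured by droplet-based 3′ RNA sequencing. Both tissues came from 3 male wild-type C57BL/6 mice aged 52 weeks, without a treatment, and the cells of the 3 mice were pooled, so that each tissue is 1 library. The study set the sebocytes of the gland beside those of skin, since PGs have been used as a model of the sebaceous gland. With 1 library per tissue, differences between the tissues have no replicate check, no test was run and no p-value is given.

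PPARs are nuclear receptors that bind fatty acids and their derivatives. They pair with an RXR on DNA and turn on genes of lipid storage and fatty acid oxidation, and PPARγ is the receptor best known for driving sebocytes and adipocytes to make lipid. LXRs, the receptors for oxysterols, also pair with an RXR and turn on genes of cholesterol export as well as Srebf1 itself. SREBPs are made as membrane proteins that SCAP escorts to the Golgi for cleavage when sterols are low, SREBP-1 being known mainly for fatty acid genes and SREBP-2 for the genes of cholesterol synthesis. Since activity rests on ligands and on cleavage, the level of the messenger RNA measured here is not a measure of activity.

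Barcodes were kept from 500 genes and 1000 UMIs upwards (unique molecular identifiers, the counted molecules), if mitochondrial genes held no more than 10% of them. Of skin 8899 cells were left and of PG 4699, and the median depth was 2386 UMIs for skin and 2729 for PG. No cell barcode was shared by the libraries. Cells were put into classes by marker genes, none of which is one of the 10 genes. The PG library held 775 sebocytes (pSEB), 704 basal epithelial cells and 1399 cells between the gates. Cells between the gates had at least 10 sebocyte marker UMIs per 10000 but did not pass the sebocyte gate. Part of them lay above its limit of 20 per 10000, with under 3 markers or no more sebocyte than suprabasal marker UMIs. Their median depth in PG was 2770 UMIs, against 5129 in pSEB, so the class is not a stage cut by marker share alone. The skin library held 35 sebocytes (sSEB), 3404 basal keratinocytes and 220 cells between the gates. Of the 9 sebocyte markers used, 7 were at least 3-fold higher in sSEB than in all other skin cells and 6 of 9 were so in pSEB. The gate uses these same markers, so this count is no independent check of the class. Of 5 markers of fat cells, Adipoq, Plin1 and Lep were at 0 UMIs in the sebocytes of both tissues, Retn had 1 UMI in pSEB and none in sSEB, and Car3 had 2 UMIs in each. Sebocytes were split by fixed genes. Differentiated cells had at least 10 UMIs per 10000 of Awat2, Elovl3 and Soat1, and more of these than of 3 basal keratins and Col17a1. Early cells were others that held at least 2 of those 4 basal genes. Intermediate cells were the rest, and not free of either, with a median of 10.1 basal marker UMIs per 10000 in PG. The split gave the following numbers. There were 216 early, 508 intermediate and 51 differentiated pSEB and 17, 7 and 11 sSEB. The PG gates passed through a continuum. Of PG cells with at least 3 sebocyte markers, 36 lay between 15 and 20 marker UMIs per 10000, just below the sebocyte limit of 20. Just above it, up to 25, lay 34, and skin had 5 and 9 such cells. Whatever their number of markers, 746 PG cells lay from 10 to 20 and 638 from 20 to 40 per 10000. Early pSEB had none of the 9 markers 3-fold above all other PG cells, and a median of 39.3 sebocyte marker UMIs per 10000 against 5.27 in PG basal cells and 298 in differentiated pSEB. Mixed cells, with markers of several lineages, were left out and made up 3.05% of skin and 2.36% of PG cells.

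All 10 genes carry the same Ensembl identifiers in the matrices and in GENCODE vM21 of GRCm38, the assembly also named mm10, which the labels give as the build. Srebf1 lies on the minus strand of chromosome 11 (chr11:60199089-60222581) and Srebf2 on the plus strand of chromosome 15 (chr15:82147181-82205379). Pparg spans chr6:115360951-115490399 on the plus strand, Ppara chr15:85734983-85802819 and Ppard chr17:28232700-28301474, both also on the plus strand. GENCODE lists 5 protein-coding transcripts of Pparg and 3 of Srebf1, each with its own start. UMIs at the 3′ end cannot tell these starts apart, so the values below add the isoforms PPARγ1 and PPARγ2 together, and likewise SREBP-1a and SREBP-1c. RefSeq promoter windows of the same assembly were matched for all 10 genes, 17 windows in all, and the 250 bases before each start were searched on both strands. The stretch of 150 bases before the last of the 3 Pparg starts, in an intron of the gene at chr6:115421916-115422065, is shown because Pparg had the largest ratio of the 10 genes between sSEB and skin basal keratinocytes. It holds the letters CCAAT, the box bound by NF-Y, a partner of SREBPs at many promoters, at 2 places, in capitals.
Pparg: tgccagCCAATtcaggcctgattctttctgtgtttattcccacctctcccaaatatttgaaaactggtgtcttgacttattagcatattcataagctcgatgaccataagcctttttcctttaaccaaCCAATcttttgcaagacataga
The next pair are the windows before the upstream and the downstream of 2 inner Srebf1 starts, at chr11:60220628-60220777 and chr11:60210472-60210621 on the minus strand, both in introns of the gene. They are shown because Srebf1 had the highest level of the 10 genes in pSEB and its starts are counted together. The downstream window holds 1 CCAAT box, which stands reversed as ATTGG from 30 to 26 bases before the start, and the upstream window holds none.
Srebf1, upstream: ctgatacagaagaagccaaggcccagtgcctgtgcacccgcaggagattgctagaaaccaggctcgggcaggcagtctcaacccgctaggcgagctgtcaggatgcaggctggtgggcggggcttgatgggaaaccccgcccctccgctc
Srebf1, downstream: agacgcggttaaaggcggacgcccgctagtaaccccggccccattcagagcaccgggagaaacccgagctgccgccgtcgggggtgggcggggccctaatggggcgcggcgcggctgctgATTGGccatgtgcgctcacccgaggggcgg

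A sterol response element with the letters TCACNCCAC was in none of the 17 windows of the 10 genes, against 1.05% of all 32851 windows. Direct repeats of AGGTCA spaced by 1 or 4 bases, the elements of PPAR and LXR pairs with RXR, were also in none, against 0.0335% and 0.0152% of all windows. The single half-site AGGTCA, which these repeats contain, was in 3 windows of Pparg and Rxra (14.0% of all windows). CCAAT was in 6 windows of 4 genes, Pparg, Ppard, Srebf1 and Srebf2, and in 33.8% of all windows. Among the 21 genes of cholesterol synthesis and uptake listed for SREBP-2, 13 had a window, and all 13 of these held a CCAAT box, in 13 of their 16 windows. In the other lists followed below, the genes with the box went from 1 of 10 coregulators to 5 of 6 cell cycle genes. The share of all genes with the box was not counted. Hmgcs1, which makes HMG-CoA, was the single gene of that list with the sterol element, and Mvd, a decarboxylase of the mevalonate pathway, was the gene of the list with the largest ratio in pSEB. Their windows are shown for this, at chr13:119690201-119690350 (plus strand, outside annotated genes) and chr8:122443423-122443572 (minus strand, within the annotated gene Gm20388 but in none of its exons), with the element and the CCAAT boxes, read as ATTGG where reversed, in capitals.
Hmgcs1: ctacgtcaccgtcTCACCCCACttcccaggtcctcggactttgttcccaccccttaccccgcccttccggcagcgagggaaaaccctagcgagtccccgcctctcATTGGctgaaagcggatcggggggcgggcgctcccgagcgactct
Mvd: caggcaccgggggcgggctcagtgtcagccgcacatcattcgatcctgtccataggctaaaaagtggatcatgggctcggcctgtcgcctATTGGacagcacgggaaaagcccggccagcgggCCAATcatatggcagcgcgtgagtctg
A match is a description of these letters, and a window without a match says only that the letters are not in these 250 bases.

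Levels were taken as UMIs of a gene per 1000000 UMIs of a cell group (CPM), with exact 95% Poisson intervals, and ratios between groups as log2 with exact binomial intervals. Both cover counting error only and not the spread between mice. A gene counted as higher or lower when its ratio passed 2-fold, among genes with at least 20 UMIs over both groups.

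In PG, Pparg, Ppara and Srebf1 were higher in early pSEB than in basal cells, the RXRs and Nr1h2 were near 1-fold, and no gene of the 10 was lower past 2-fold. Of the 8 genes that could be compared, 3 were higher, where 6.57% of all 8982 genes compared were higher and 11.2% lower. The median log2 ratio of the 8 genes was 0.76, and that of all genes compared was -0.03. Taken over all pSEB, 4 of 9 genes were higher than in basal cells, Nr1h3 being added, with 10.2% of all 10101 genes higher and 16.7% lower.

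**Figure D1:**
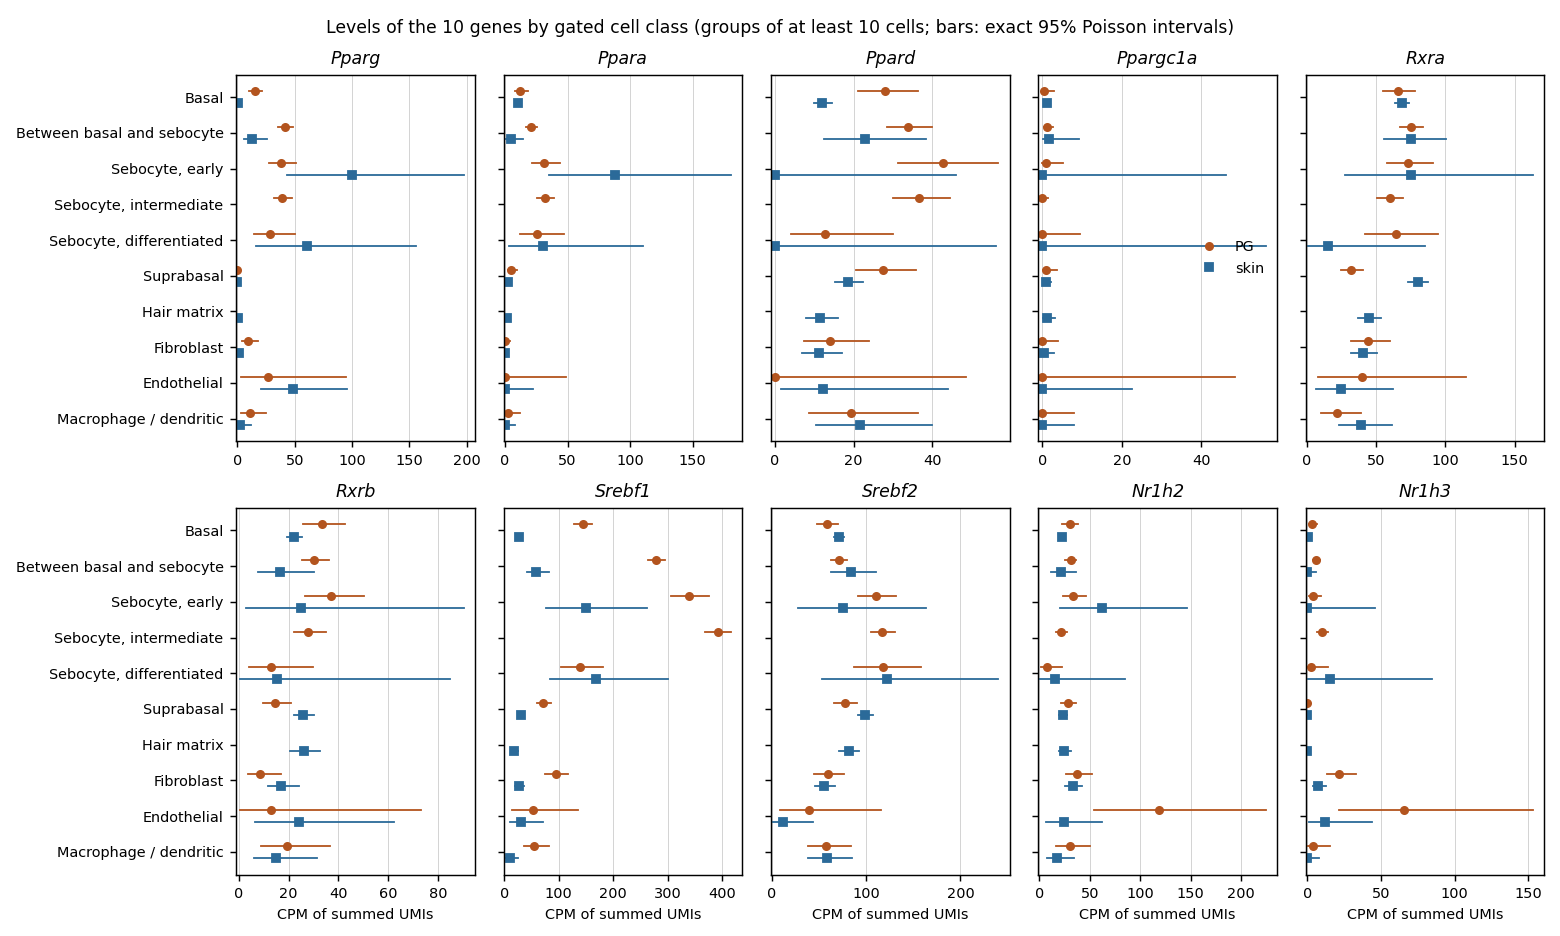
Level of each of the 10 genes (x axis, CPM of summed UMIs) in gated classes and sebocyte stages (y axis) of PG (circles) and skin (squares). Bars are exact 95% Poisson intervals. T cells, contractile cells, skeletal muscle and melanocytes are not drawn. Only groups of at least 10 cells are drawn, so the 7 intermediate sebocytes of skin are missing. Pparg of PG lies at 38.0 and 39.3 CPM in early and intermediate pSEB and at 41.5 in the cells between the gates, and Srebf1 lies highest in intermediate and early pSEB, at 392 and 340 CPM.

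Pparg, the receptor of lipid-storing cells, stood at 15.3 CPM in PG basal cells (30 UMIs), 38.0 in early (41), 39.3 in intermediate (108) and 28.3 in differentiated pSEB (11). The step from basal to early cells was a log2 ratio of 1.32 (0.60 to 2.05), and that from early to differentiated cells was -0.43 (-1.53 to 0.56), an interval that spans 0. In skin it stood at 0.206 CPM in basal keratinocytes, 2 UMIs in 3404 cells, and at 77.5 CPM in sSEB, 13 UMIs in 12 of the 35 cells. This gives a log2 ratio of 8.55 (6.41 to 11.74) between sSEB and basal keratinocytes, although its 15 UMIs kept it out of the genes compared.
The PG basal gate was not free of Pparg, at a level 6.21 log2 units above that of skin basal keratinocytes (4.23 to 9.32). PG suprabasal keratinocytes, from the same library, held 0 UMIs in 465 cells. This allows up to 1.56 CPM by the limit of 3 counts and 1.91 by the exact Poisson interval. Free RNA, read from PG barcodes with at most 100 UMIs, held Pparg at 23.3 CPM, and its share of the UMIs was estimated at 6.78% in PG basal cells and 3.14% in skin basal keratinocytes. With it subtracted, the remaining skin UMIs lay under the limit of 3 counts, and against that limit the log2 ratio was at least 5.52. Outside the epithelium, skin endothelial cells held 48.6 CPM (8 UMIs in 78 cells) and PG endothelial cells 26.3 (2 UMIs in 46 cells) and PG contractile cells 68.8 (3 UMIs in 28 cells), each from few UMIs. Free RNA was estimated to make up 68.4% of the UMIs of the PG contractile cells, with fibroblast marker UMIs in them counted as free RNA.

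Shares of cells tell the same levels with less depth behind them. After each cell was thinned to 1000 UMIs, Pparg was seen in 4.52% of pSEB (exact binomial interval 3.17 to 6.23%), in 1.70% of PG basal cells (0.884 to 2.96%) and in 5.71% of sSEB (0.700 to 19.2%). It was seen in 0 of 3404 skin basal keratinocytes, which allows a share of up to 0.0881% by the limit of 3 counts and 0.108% by the exact binomial interval. Without thinning the shares were 0.0588% of these cells, 18.3% of pSEB, 3.98% of PG basal cells and 34.3% of sSEB. Median depths were 2471 UMIs in skin basal keratinocytes, 5129 in pSEB, 2564 in PG basal cells and 4523 in sSEB. The suprabasal keratinocytes gave 0 cells with the gene in both tissues, at medians of 3819 UMIs in PG and 2999 in skin.

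Ppara, the receptor of fatty acid oxidation, went from 12.2 CPM in PG basal cells (24 UMIs) to 31.5 in early (34), 32.0 in intermediate (88) and 25.7 in differentiated pSEB (10). Early cells were above basal cells by a log2 ratio of 1.37 (0.57 to 2.18), and the differentiated cells overlapped the early ones. In skin it went from 10.7 CPM in basal keratinocytes (104 UMIs) to 53.7 in sSEB (9 UMIs in 8 cells), a log2 ratio of 2.32 (1.15 to 3.30). Unlike Pparg, it had the same level in the basal cells of both tissues within counting error, the log2 ratio of PG over skin being 0.19 (-0.52 to 0.84).

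Ppard, the most widely expressed of the PPARs, behaved otherwise. It stood at 28.0 CPM in PG basal cells (55 UMIs), 42.6 in early (46), 36.7 in intermediate (101) and 12.9 in differentiated pSEB (5). From early to differentiated cells it was lower by a log2 ratio of -1.73 (-3.42 to -0.40). No UMI was found in the 35 sSEB, which allows up to 17.9 CPM by the limit of 3 counts and 22.0 by the exact Poisson interval. Skin basal keratinocytes held 12.1 CPM (117 UMIs), so a difference within skin was not detectable at this depth. The 36.0 CPM of pSEB (152 UMIs) were 2.01-fold higher than the limit of 3 counts for sSEB. Against the upper end of the exact Poisson interval they were under 2-fold higher, so a 2-fold difference is not shown.

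Ppargc1a, which encodes the coactivator PGC-1α of mitochondrial genes, was close to absent. It had 1 UMI in the 704 PG basal cells, 1 in all 775 pSEB and 0 in the 35 sSEB, and 11 UMIs in the skin basal keratinocytes (1.13 CPM). In skin the largest CPM of the gene came from 2 UMIs in 23 melanocytes and 2 in 63 skeletal muscle cells. It stayed under 20 UMIs over both groups in all 6 comparisons.

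The RXRs, the partners of all the receptors above, differed little between basal cells and sebocytes. Rxra stood at 65.6 CPM in PG basal cells (129 UMIs), 73.2 in early (79), 59.6 in intermediate (164) and 64.3 in differentiated pSEB (25). Its log2 ratio of pSEB over basal cells was -0.05 (-0.36 to 0.27), and that of sSEB, at 47.7 CPM (8 UMIs), over skin basal keratinocytes, at 68.3 CPM (663 UMIs), was -0.52 (-1.74 to 0.47). Between the basal cells of both tissues it was -0.06 (-0.34 to 0.22), so that a 2-fold difference lies outside the interval. Suprabasal keratinocytes were where the tissues parted, with 79.9 CPM in skin (498 UMIs) and 31.7 in PG (61). Rxrb stood at 33.6, 37.1, 28.0 and 12.9 CPM in PG basal, early, intermediate and differentiated cells (66, 40, 77 and 5 UMIs). It was lower in differentiated than in early pSEB, at a log2 ratio of -1.53 (-3.23 to -0.19), and did not pass 2-fold elsewhere.

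Srebf1 was the most abundant of the 10 transcripts in pSEB by UMI count. It stood at 144 CPM in PG basal cells (283 UMIs), at 340 in early (367) and 392 in intermediate pSEB (1079), and at 139 in differentiated pSEB (54). The log2 ratio was 1.24 (1.01 to 1.47) from basal to early cells and -1.29 (-1.73 to -0.88) from early to differentiated ones. In skin it was 27.3 CPM in basal keratinocytes (265 UMIs) and 149 CPM in sSEB (25 UMIs in 16 cells), a log2 ratio of 2.45 (1.79 to 3.04). Early and differentiated sSEB held 150 and 168 CPM (12 and 11 UMIs), with intervals that overlap.

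The matrices list barcodes from sets of unequal size, so the chemistry of the libraries may differ, and this cannot be told apart from the tissues. Between the tissues, Srebf1 was higher in PG, at a log2 ratio of 1.25 (0.69 to 1.89) for pooled sebocytes and 2.40 (2.15 to 2.65) for basal cells. The sebocytes differed in stage mix, with 216 early, 508 intermediate and 51 differentiated cells in PG and 17, 7 and 11 in skin. Early cells held 340 CPM in PG and 150 in skin, without overlap of the intervals. Differentiated cells held 139 in PG and 168 in skin, with intervals that overlap, so PG was not higher at that stage. The part of the stage mix in the pooled ratio was not tested. Of the other classes found in both, 4 were higher in PG without overlap of the intervals. Cells between the gates held 279 CPM in PG and 59.1 in skin. Fibroblasts held 94.4 CPM in PG and 27.7 in skin, macrophages and dendritic cells 55.5 and 10.8, and suprabasal keratinocytes 72.1 and 31.4. The rest had few UMIs and overlapped, endothelial cells at 52.6 CPM in PG and 30.4 in skin, contractile cells at 45.9 and 73.7, and T cells at 0 UMIs in PG and 2 in skin. The free RNA of PG held 189 CPM of Srebf1 against 19.0 in skin. In PG the share of free RNA was estimated at 6.78% in basal cells, 4.73% in cells between the gates and 9.01% in fibroblasts. It was 9.04% in suprabasal keratinocytes and 13.7% in macrophages and dendritic cells, whose Srebf1 level rests on 26 UMIs. With free RNA subtracted, the log2 ratio between the basal cells was 2.35, and the part of free RNA in the other classes was not tested.

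After thinning, Srebf1 was seen in 28.4% of pSEB (25.2 to 31.7%), 11.9% of PG basal cells (9.63 to 14.6%), 7 of the 35 sSEB (8.44 to 36.9%) and 2.61% of skin basal keratinocytes (2.10 to 3.21%). By stage the shares were 24.5% in early, 31.5% in intermediate and 13.7% in differentiated pSEB. Without thinning, 76.5% of pSEB and 45.7% of sSEB held at least 1 UMI.

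Srebf2 was higher in pSEB by less, and its CPM was alike in the 3 stages. It stood at 58.5 CPM in PG basal cells (115 UMIs), 110 in early (119), 117 in intermediate (322) and 118 in differentiated pSEB (46). The ratio of pSEB over basal cells was 0.98 on the log2 scale (0.68 to 1.29), just under the 2-fold limit, and that of differentiated over early cells was 0.10 (-0.42 to 0.60). Per cell the stages were less alike. After thinning, the gene was seen in 6.02% of early (3.24 to 10.1%), 11.4% of intermediate (8.78 to 14.5%) and 23.5% of differentiated pSEB (12.8 to 37.5%), and with every cell weighted equally the log2 ratio of differentiated over early cells was 0.79. In skin the step was smaller, from 70.8 CPM in basal keratinocytes (687 UMIs) to 101 in sSEB (17), with an interval that spans 0 (-0.27 to 1.21). The 115 CPM of pSEB and 101 CPM of sSEB differed by a log2 ratio of 0.19 (-0.51 to 0.98). Outside the sebocytes the gene was high in skin suprabasal keratinocytes, at 98.8 CPM (616 UMIs), so Srebf2 did not mark sebocytes the way Srebf1 did.

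The LXRs differed in how widely they were found. Nr1h2, the widely expressed LXRβ gene, stood at 30.0 CPM in PG basal cells (59 UMIs), 33.4 in early (36), 21.4 in intermediate (59) and 7.72 in differentiated pSEB (3). The step from early to differentiated cells was a log2 ratio of -2.11 (-4.46 to -0.45), which rests on 3 UMIs, and it was -0.61 in cells with at most 5% mitochondrial UMIs. In skin it stood at 22.1 CPM in basal keratinocytes (214 UMIs) and 35.8 in sSEB (6). Nr1h3, the LXRα gene known from macrophages and liver, was rare in epithelium. It had 3.05 CPM in PG basal cells (6 UMIs), 3.71 in early (4), 9.81 in intermediate (27) and 2.57 in differentiated pSEB (1), and 0.206 CPM in skin basal keratinocytes (2 UMIs in 3404 cells) beside 11.9 in sSEB (2 UMIs). The 32 UMIs of pSEB put it above PG basal cells at a log2 ratio of 1.31, with an interval from 0.03 to 2.86. Its level was higher outside the epithelium, at 65.7 CPM in PG endothelial cells (5 UMIs in 46 cells) and 21.5 in PG fibroblasts (20 UMIs). PG contractile cells stood at 68.8 CPM (3 UMIs in 28 cells). Free RNA, most of the UMIs of these contractile cells by the estimate above, held Nr1h3 at 6.99 CPM in PG, and its part was not tested. Macrophages and dendritic cells held 4.27 CPM in PG (2 UMIs) and none in skin. PG endothelial cells also held the highest Nr1h2 of the classes of at least 20 cells, 118 CPM from 9 UMIs, and few UMIs stand behind both.

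**Figure D2:**
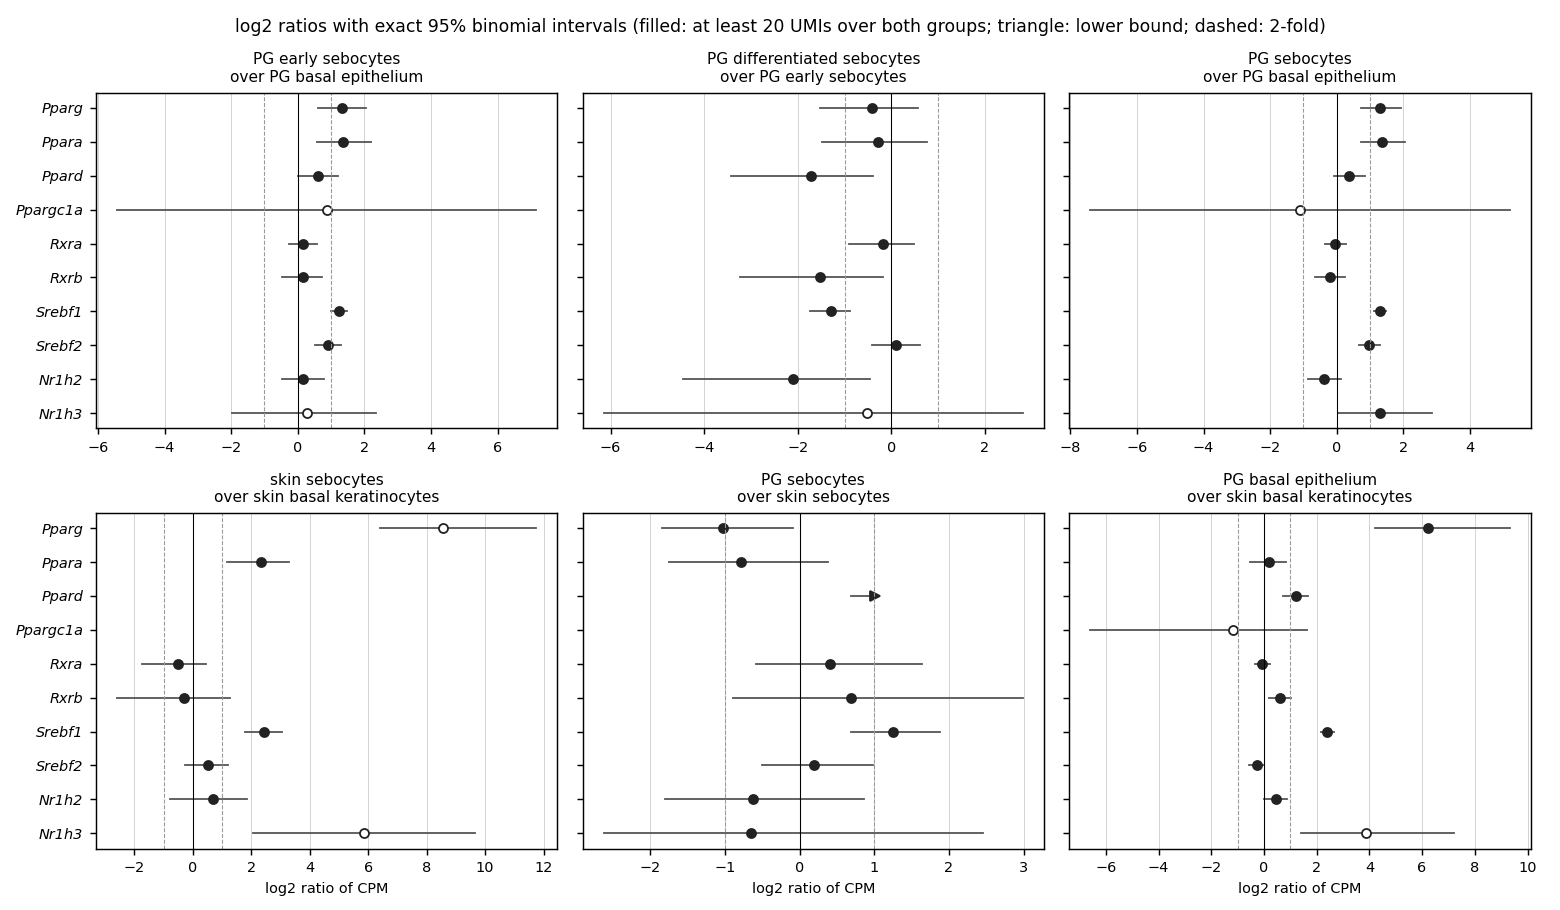
log2 ratio of CPM (x axis) of each of the 10 genes (y axis) in the 6 comparisons, with exact 95% binomial intervals as bars. Filled points had at least 20 UMIs over both groups, the triangle is a lower bound, dashed lines mark 2-fold, and a gene without a point had no readable ratio. Srebf1 lies past 2-fold in all 6 panels, to the left in differentiated over early pSEB and to the right in the other 5.

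From early to differentiated pSEB no gene of the 10 was higher past 2-fold, and 4 of the 8 compared were lower, namely Ppard, Rxrb, Srebf1 and Nr1h2. Of all 6357 genes compared there, 10.5% were higher and 26.7% lower, and the median log2 ratio was -0.86 for the 8 genes and -0.29 for all. Of these 4, Ppard and Rxrb had 5 UMIs each and Nr1h2 had 3 in the 51 differentiated cells. These cells also had the largest median share of mitochondrial UMIs, 6.29% against 3.12% in early cells, and only 17 of them had at most 5%. In cells under that limit the log2 ratio of Srebf1 was -0.48, and 2 genes, Ppard and Rxrb, were past 2-fold. The part of the mitochondrial share in the lower Srebf1 was not tested.

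The levels were also followed along the sebocyte marker share itself, which the gates use too, so that the bins are no independent check of the classes. PG cells outside the suprabasal, hair, non-epithelial and mixed classes were put in 8 bins by their share of sebocyte marker UMIs. The bins went from under 5 to 320 or more per 10000. The first 2 bins also held the cells in no class, 366 in PG and 1317 in skin, which were not shown to be epithelial. Srebf1 went through 95.05, 158, 235, 306, 422, 399, 251 and 63.9 CPM, with its highest level in the fifth bin, at 40 to 80 marker UMIs per 10000. Pparg had its highest level in that bin too, going from 4.75 CPM (7 UMIs in 553 cells) to 55.0 (88 UMIs in 382 cells) and then to 33.8, 28.1 and 24.6. Srebf2 stayed between 55.7 and 77.6 CPM in the first 4 bins between 118 and 127 in the next 3 and at 88.5 in the last. Rxra stayed between 50.9 and 83.1 CPM over all 8 bins. Nr1h2 stood between 23.7 and 33.1 CPM in the first 6 bins, at 13.2 in the seventh and at 0 UMIs in the last, which held 23 cells. Ppard and Rxrb, both past 2-fold between early and differentiated pSEB, had overlapping intervals over the fifth to the seventh bin. Ppard stood at 43.1, 34.4 and 33.1 CPM there and Rxrb at 29.99, 30.2 and 28.1, and in the last bin they had 1 and 2 UMIs.

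Depth was larger along these bins, from a median of 2487 UMIs per cell to 9364, and UMIs per cell therefore give another view. Srebf1 went from 0.253 UMIs per cell in the first bin to 2.27 in the sixth, 1.73 in the seventh and 0.565 in the last, and so was lower per cell too in the last bins. Rxra went up throughout, from 0.136 to 0.609 per cell, and Srebf2 from 0.148 to 0.875 in the seventh bin. Pparg was at 0.0127 per cell in the first bin and between 0.192 and 0.230 in each of the last 4, and so was not lower per cell there.

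**Figure D3:**
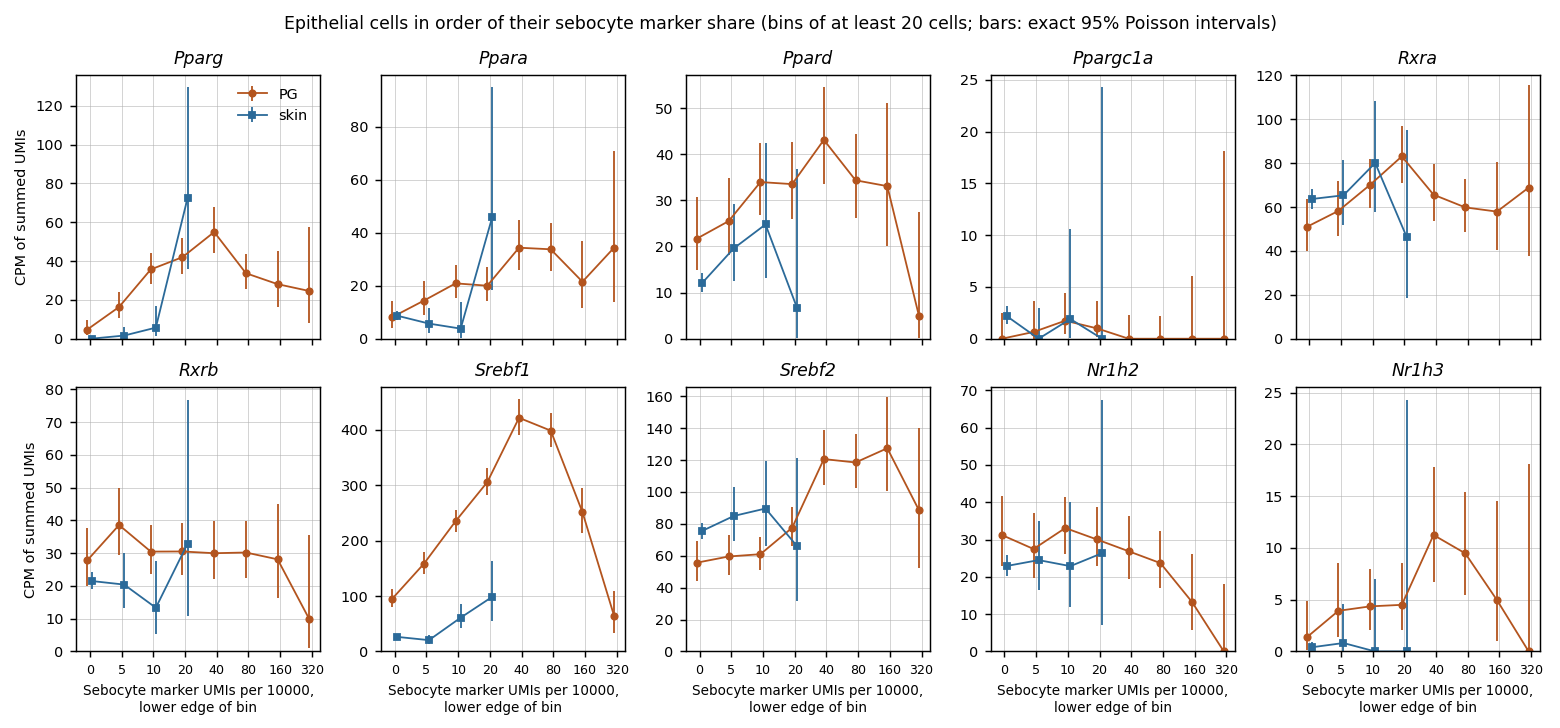
Level of each gene (y axis, CPM of summed UMIs) along the share of sebocyte marker UMIs (x axis, lower edge of each bin per 10000 UMIs). The cells are epithelial cells and cells in no class, of PG (circles) and skin (squares), and the bars are exact 95% Poisson intervals. Only bins of at least 20 cells are drawn, which leaves 4 bins in skin. Srebf1 and Pparg of PG lie highest in the bin at 40 per 10000 and lower after it, at 63.9 and 24.6 CPM in the last bin, while Rxra stays between 50.9 and 83.1 CPM.

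Skin had few cells in the higher bins, 45 in the bin from 20 to 40 per 10000 and 8, 4, 9 and 1 in the bins above it. Pparg stood at 0.0805 CPM in the first bin (1 UMI in 4254 cells), 1.63 in the second, 5.72 in the third and 72.5 in the fourth (11 UMIs). Srebf1 stood at 26.3, 20.4, 61.0 and 98.8 CPM in the same bins. In PG the 8 bins thus began with Pparg at 4.75 CPM and Srebf1 at 95.05 CPM where skin began with 0.0805 and 26.3. The first bins of both tissues also held cells in no class, so these are not levels of basal cells alone.

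Within skin, 2 of 7 genes compared were higher in sSEB than in basal keratinocytes, Ppara and Srebf1, and none was lower past 2-fold. Over all 11411 genes compared, 15.0% were higher and 12.5% lower, and 2132 had no readable direction since they had no UMI in the 35 sSEB. Pparg, Nr1h3 and Ppargc1a fell under the 20 UMIs that a comparison asked for. Between the sebocytes of both tissues, 2 of 9 genes were higher in pSEB, Srebf1 and Ppard, and 1 was lower, Pparg, at a log2 ratio of -1.03 (-1.85 to -0.09). All 9045 genes compared gave 14.5% higher and 15.8% lower. The sebocytes of the tissues differed in their mix of stages, which bears on each ratio between them and was not tested. The call of Ppard as higher rests on the limit of 3 counts for sSEB. Against the upper end of the exact Poisson interval, 22.0 CPM, it did not pass 2-fold. Both Pparg and Ppard lay close to 2-fold, and neither passed it when cells of under 1000 genes or 2000 UMIs were dropped, where Pparg stood at -0.83, or with a mitochondrial limit of 5%, where it stood at -0.81. Of the 9 alternatives, Srebf1 passed 2-fold in 9, Pparg in 5 and Ppard in 4. Among these, a minimum of 5 UMIs leaves each ratio as it was and is no check of the calls. Between the basal cells, 3 of 8 genes were higher in PG, Pparg, Ppard (1.21, 0.72 to 1.69) and Srebf1, where 14.9% of 11807 genes were higher and 17.4% lower. The median log2 ratio there was 0.53 for the 8 genes and 0.01 for all.

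The basal gates were not alike. PG basal cells had a median of 5.27 sebocyte marker UMIs per 10000 and skin basal keratinocytes 0, and the summed level of 10 dissociation stress genes was 1393 CPM in PG and 8820 CPM in skin. The median of basal marker UMIs per 10000 was 60.9 in PG basal cells and 220 in skin basal keratinocytes. Of the 6 basal markers, 3 in PG and 6 in skin were over 3-fold above all other cells of the library. With a stricter gate, which took basal cells with fewer sebocyte markers, Srebf1 was the 1 gene past 2-fold between the basal cells, at a log2 ratio of 1.63. Ppard stood at 0.65 there, and Pparg had under 20 UMIs and was not compared.

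The genes these factors act on were followed as lists, which describe and do not test the activity of a factor. Each list is given by the number of its genes past 2-fold and its median, beside the median of all genes compared, -0.12 in pSEB over PG basal cells and 0.07 in sSEB over skin basal keratinocytes. Of all genes compared, 10.2% were higher and 16.7% lower in pSEB, 15.0% higher and 12.5% lower in sSEB, and 10.5% higher and 26.7% lower in differentiated over early pSEB. The lists overlap with no marker except 1 gene of the PPAR list. The sebocyte markers are largely genes of lipid metabolism themselves, among them Scd1, Dgat2, Soat1, Awat2 and Elovl3, and the stages were cut by Awat2, Elovl3 and Soat1. Cells were thus chosen by lipid genes, and the lists of lipid genes are no independent check of the classes.

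Of 18 PPAR target genes, 13 could be compared in PG, and 11 were higher and none lower in pSEB, with a median log2 ratio of 2.15. Acsl1, which activates fatty acids, stood at 247 CPM in pSEB and 21.4 in basal cells (3.53, 3.09 to 4.01), and Plin2, the coat protein of lipid droplets, at 1060 and 169 CPM (2.65, 2.48 to 2.81). Cd36, a fatty acid transporter, had 48 UMIs in pSEB and 0 in basal cells, at least 7.45-fold higher by the limit of 3 counts. Genes of mitochondrial oxidation were lowest of those compared, with Cpt1a at -0.18 (-0.53 to 0.19) and Acadm at 0.06. In skin 10 of 11 were higher in sSEB and none lower, with a median of 2.80, and Plin2 went from 15.9 to 1175 CPM.

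Of the 13 fatty acid genes listed for SREBP-1, 8 of 11 compared were higher and 1 lower in pSEB, with a median log2 ratio of 2.57. The desaturases Fads2 and Fads1 led, at 618 against 7.63 CPM (6.34, 5.61 to 7.18) and 67.3 against 4.07 CPM (4.05), followed by Acss2, which makes acetyl-CoA from acetate, at 4.01. Elovl6, the elongase of palmitate, was the lower gene, at 1.90 CPM in pSEB and 8.14 in basal cells (-2.10, -3.53 to -0.79), and Scd2 (-0.09) and Acaca (0.89) did not pass 2-fold. In skin 9 of 11 were higher in sSEB and none lower, with a median of 3.26. There Elovl6 led, at 2701 CPM against 14.5 in basal keratinocytes (7.54, 7.26 to 7.82), and Fads2 had 0 UMIs in sSEB. Between the sebocytes of both tissues, 3 of 11 fatty acid genes compared were higher in pSEB and 2 lower, with a median of 0.43. By the limit of 3 counts, Fads2 was at least 34.5-fold higher in pSEB than in sSEB. Elovl6 was lower in pSEB by a log2 ratio of -10.48 (-11.70 to -9.49).

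The sterol genes listed for SREBP-2 had the highest median of the lists in both tissues. In pSEB 16 of 19 compared were higher and 1 lower, with a median of 2.99 and a summed level of 12218 against 706 CPM. Mvd, whose window is shown above, stood at 115 CPM in pSEB and 3.56 in basal cells (5.01, 3.96 to 6.33), and Idi1, an isomerase of the same pathway, at 7184 and 245 CPM (4.88). Hmgcs1 stood at 1461 and 100 CPM (3.87). Dhcr7 (-3.17, 5 against 21 UMIs) and Sc5d (-0.41) were lowest. In skin 17 of 20 were higher and 1 lower, with a median of 3.32. Between the sebocytes of both tissues, 1 of 18 was higher in pSEB, Idi1, and 9 were lower, with a median of -0.87. The summed level was 12218 CPM in pSEB and 8997 in sSEB, but Idi1 alone held 7184 CPM of the sum in pSEB. The sums thus do not stand for the list as a whole. Differentiated cells gave 65601 of the 167716 UMIs of sSEB and 388810 of the 4219251 UMIs of pSEB. The part of this stage mix in the counts and the median was not tested. Between the basal cells 2 of 20 were higher in PG and 7 lower, with a median of -0.60. From early to differentiated pSEB, where Srebf2 had a log2 ratio of 0.10 and Srebf1 was lower, 15 of 17 sterol genes were higher and 1 was lower, with a median of 2.41, and 6 of 10 fatty acid genes were higher and none lower, with a median of 1.84.

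**Figure D4:**
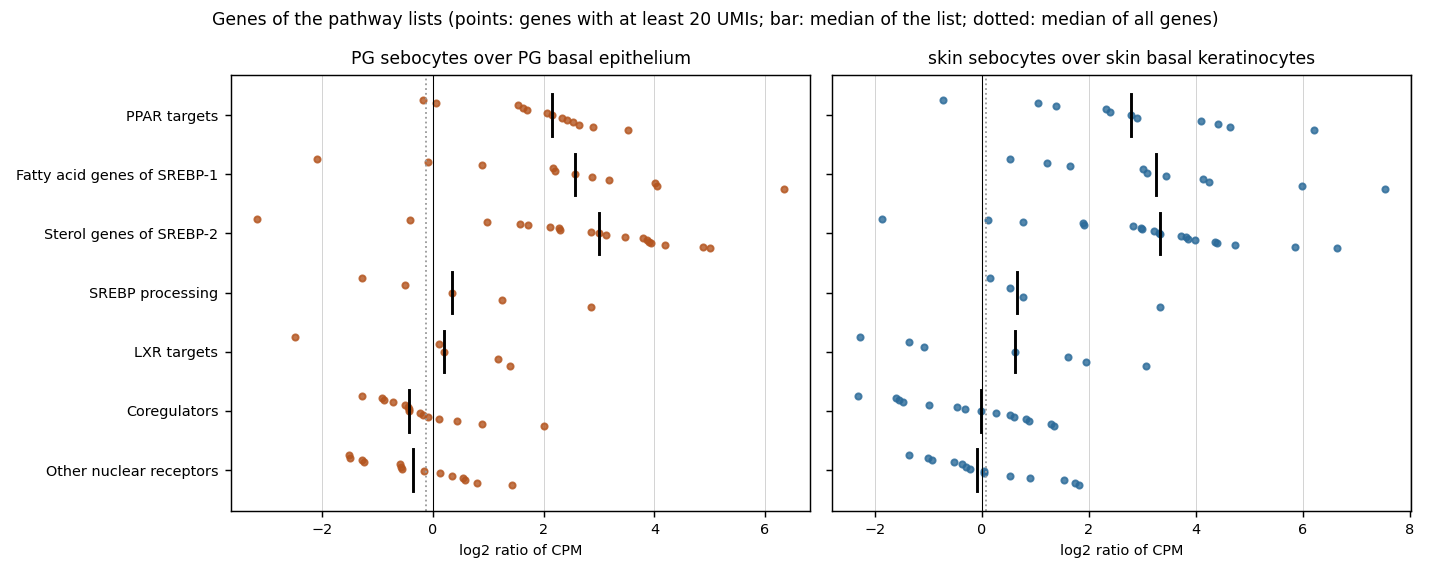
log2 ratio of CPM (x axis) of the genes of 7 lists (y axis) in sebocytes over basal cells of PG (left) and skin (right). Points are genes with at least 20 UMIs over both groups, genes with no UMI in a group standing at their bound, the black bar is the median of the list and the dotted line the median of all genes compared. The PPAR, SREBP-1 and SREBP-2 lists lie to the right in both tissues, with medians of 2.15, 2.57 and 2.99 in PG.

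The machinery that releases SREBPs went both ways. Insig1, which holds SCAP back when sterols are high and is also in the sterol list, was higher in pSEB (2.86, 59.3 against 8.14 CPM), as was Scap, the escort itself (1.25, 1.004 to 1.51). Insig2 was lower, at 28.9 against 70.2 CPM (-1.28, -1.64 to -0.92). The proteases Mbtps1 (-0.50) and Mbtps2 (0.34) did not pass 2-fold. In skin Insig1 was the 1 gene of 5 past 2-fold, at 125 against 12.5 CPM (3.33).

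Of 7 LXR target genes, 5 could be compared in PG, and 2 were higher and 1 lower in pSEB, with a median of 0.20. Smpdl3a (1.39) and the cholesterol exporter Abca1 (1.17, 0.79 to 1.57) were higher, the phospholipid transfer protein gene Pltp was lower (-2.50, -2.92 to -2.09), and Lpcat3 stood at 0.20. Apoe, the most abundant of them, stood at 7995 and 7446 CPM (0.10). In skin 3 of 7 were higher and 3 lower, with a median of 0.62. From early to differentiated pSEB 3 of 5 were lower and 1 higher, with a median of -1.42, and Abca1 went from 72.3 to 15.4 CPM, where 26.7% of all genes compared were lower. With so few genes, the LXR counts are not read as a result about the list.

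Of 15 coregulators 1 was higher and 1 lower in pSEB, with a median of -0.42. Lpin1, a phosphatase that also coactivates PPARs, was the higher gene (2.01, 1.32 to 2.78). In skin 2 were higher and 4 lower of 15. Of 20 other nuclear receptors, 14 could be compared and 1 was higher and 4 lower in pSEB, with a median of -0.35. The thyroid hormone receptor gene Thrb was higher (1.43), while Vdr (-1.52) and Rarg (-1.50) were lower. In skin 3 of 14 were higher and 2 lower. The 4 of 15 coregulators lower in sSEB stand beside 12.5% of all genes, and the 4 of 14 other nuclear receptors lower in pSEB beside 16.7%. With so few genes, nothing is read from the counts of these lists. Along with these, the 6 cell cycle genes were all lower in pSEB, summing to 91.7 CPM against 672 in PG basal cells, and 4 of 6 were lower in sSEB. Of 10 dissociation stress genes 6 were lower and none higher in pSEB, and 9 lower and none higher in sSEB, and their part in the values above was not tested.

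Across 17 groups of at least 50 cells from both libraries, with the 35 sSEB too few to enter, the genes whose levels were ordered most like Pparg were Kank3 (Spearman's rho 0.914), Angptl4, a secreted inhibitor of lipoprotein lipase that is on the PPAR list (0.883), Ciao1 (0.875) and Nampt (0.871). Those most like Srebf1 were Ermp1 (0.946), Bcap31 (0.944), Cyp2f2 (0.938), Igbp1 (0.926) and Mia (0.922). Those most like Nr1h3 were G0s2, an inhibitor of lipolysis (0.920), Fzd4 (0.846), Nr2f2 (0.826) and Pgm5 (0.802). Pparg and Nr1h3 had no UMI in several of these groups and very few in others, so their order rests partly on ties and single counts. These are descriptions over 11051 genes, in which the groups share 2 libraries, their depth and their free RNA, and no p-value applies.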

How the data were processed

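Cells of back skin and PG from 3 mice were pooled by tissue into 1 library each. The authors deposited unfiltered UMI counts made with Cell Ranger 4, per the file headers, mapped to mm10 per the labels, without normalization. The annotation release is not given in the sources used here. The skin matrix lists 6794880 barcodes and the PG matrix 737280, although the labels name the same kit, and 77142 are in both lists. The chemistry may thus differ between the libraries, which bears on each ratio between tissues and was not tested.

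Cells were filtered as in the report and held 27407186 UMIs in skin and 15270076 in PG. Classes were gated per cell by markers, without clustering. A non-epithelial class needed at least 3 markers, 10 marker UMIs per 10000, no less than its level in free RNA, and a 2-fold lead over the next class. Sebocytes needed 3 of 9 markers, 20 per 10000 and more than the suprabasal marker share, and basal cells 3 markers, 20 per 10000 and under 10 sebocyte marker UMIs per 10000. Apoc1 was dropped from the sebocyte markers after its wide level in skin keratinocytes had been seen. Mixed cells were left out, and a cell was mixed only if a non-epithelial or hair class passed without its lead. Doublets of basal cells with sebocytes would thus not enter the mixed cells and could pass as sebocytes. No doublet caller was used except as an alternative. Cells in no class made up 14.8% of skin and 7.79% of PG.

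UMIs were summed per group. Cells are not replicates, so no test was run. A group at 0 was set to the limit of 3 counts, and a gene whose limit lay beyond the level of the other group was given no direction. Named genes are the 10 genes, the 3 highest and 3 lowest of each list in pSEB over basal cells, and the 5 most alike in order of level. Some of these are not reported here, and Hmgcs1 was named after its window had been searched. The genes and lists were chosen with earlier results of these data known. Gates and intervals were run on simulated counts. The simulated cells were drawn from the summed profiles of the gated classes, without the cells between the gates. Their recovery is thus largely built in and does not check the gates on the continuum. Counts for the ratios were drawn as Poisson, the counting error that the intervals assume. Promoters came from RefSeq (GRCm38.p6) and positions from GENCODE vM21. Python 3.11.15, numpy 2.4.6, scipy 1.17.1, pandas 2.3.3, scanpy 1.11.5 and matplotlib 3.10.9 were used.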

Additional observations from a re-analysis of the deposited data

Results flagged for a closer look

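Nr1h2 stood lower in sebocytes than in basal cells in PG, at a log2 ratio of -0.37 (98 against 59 UMIs), and higher in skin, at 0.70 (6 against 214 UMIs). The signs of the tissues are opposite, but both intervals span 0 and the difference was not tested.

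Barcodes left out for a mitochondrial share above 10% also held the 10 genes, summing to 395 CPM in 232 skin barcodes and 536 CPM in 662 PG barcodes. In these PG barcodes Srebf1 stood at 241 CPM and Pparg at 25.6 CPM, and in those of skin at 49.3 and 13.7 CPM.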

How the results depend on the processing

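Under 9 alternatives, single ratios of the 10 genes moved beyond their counting interval in 8 of 420 cases, and 409 of 420 kept their sign. A minimum of 5 UMIs cannot change a ratio, and a denominator without the 50 top genes shifts all ratios of a comparison alike. These cases are thus no check of single ratios, and genes under 20 UMIs with the stricter gate gave no case. Counts of genes past 2-fold moved by over 1.5 times in 7 of 54 cases, and beyond the fewer cells given here the cause was not tested. With a stricter marker gate the count was 1 for early pSEB over basal cells (3 otherwise), 1 for differentiated over early pSEB (4) and 1 for PG over skin basal cells (3), Srebf1 in each case, with 39 of 216 early pSEB and 209 of 704 PG basal cells left. There Pparg and Ppara in the first comparison, and Ppard, Rxrb and Nr1h2 in the second, had under 20 UMIs and were not compared. Under that gate Srebf1 stood at 1.99 in early pSEB over basal cells, and in all pSEB over basal cells Pparg stood at 2.80 and Ppara at 1.42. With at most 5% mitochondrial UMIs it was 2 for differentiated over early pSEB and 1 for pSEB over sSEB (3), and with at least 1000 genes and 2000 UMIs it was 1 for pSEB over sSEB. With a minimum of 5 UMIs it was 5 for PG over skin basal cells, Ppargc1a and Nr1h3 being added. Leaving out Scrublet's highest doublet scores, the 50 top genes or the cells of most UMIs, averaging over cells and subtracting free RNA moved no count by over 1.5 times.

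No paired analysis was possible because each tissue is 1 library of pooled mice and no replicate numbers exist. Depth limits sSEB most: their 167716 UMIs put the limit of a gene without a UMI at 17.9 CPM.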
